A study of Mus musculus with 20 samples.

Results

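The Hippo pathway was followed through 10 of its genes in mouse fibroblasts that lack AMP-activated protein kinase (AMPK) and were exposed to AICAR. The 10 genes were the kinases Stk3 (MST2) and Stk4 (MST1), their adaptors Sav1, Mob1a and Mob1b, the membrane-linked regulator Nf2 (merlin), the coactivators Yap1 (YAP) and Wwtr1 (TAZ), the DNA-binding partner Tead1 and its cofactor Vgll4. They were taken by name, and every probe set that the platform annotation assigns to just 1 of these symbols was used. This gave 9 of the 10 genes with 19 probe sets, out of 17097 genes with 28898 such probe sets. Nf2 had 4 probe sets, Mob1a and Wwtr1 had 3 each, Stk4, Sav1 and Yap1 had 2 each, and Mob1b, Tead1 and Vgll4 had 1 each. Stk3 had 0 single-symbol probe sets and was not analysed here. All 9 genes, and 18 of the 19 probe sets, passed the filter on dim probe sets. The exception was the Nf2 probe set 1427708_PM_a_at, with a mean log2 signal of 4.53.

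The cells were SV40-immortalized embryonic fibroblasts, a line in which the viral large T antigen inactivates p53 and RB, and all 20 arrays came from cells with both catalytic AMPK subunit genes (Ampkα1 and Ampkα2) knocked out. Cells were incubated with 1 mM AICAR, a nucleoside taken up and phosphorylated to an AMP mimic, for 1, 2, 4, 12 or 24 h (3 arrays each) or 8 h (2 arrays), and 3 control arrays came from untreated cells at 0 h. Every comparison against 0 h used the same 3 control arrays, and hours in AICAR and hours in culture could not be told apart. The labels do not say whether replicates were separate cultures or how many clones the line holds, and the p-values below therefore cover array-to-array spread that might be no more than technical. In bulk RNA, fewer cells of a type and less RNA per cell cannot be told apart.

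In the Hippo pathway, MST kinases bound to SAV1 phosphorylate the LATS kinases and their MOB1 cofactors, with merlin recruiting the complex to the cell cortex. Active LATS phosphorylates YAP and TAZ, which are then held in the cytoplasm by 14-3-3 proteins or degraded. Unphosphorylated YAP and TAZ enter the nucleus, bind TEAD factors and turn on genes of growth and matrix adhesion, and VGLL4 competes with YAP for TEAD. Much of this control acts on proteins, which arrays do not measure. In fibroblasts the pathway responds to cell density, the actin cytoskeleton and energy stress, and AMPK itself phosphorylates YAP.

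The median log2 signal of an array was 5.16 to 5.32, and the 23 nonspecific control probe sets had a 95th percentile of 5.08, used here as the background level. Of 10 fibroblast markers, 8 lay above it, led by Vim at 13.19 in AICAR at 24 h and 13.20 in controls. Col1a2 (4.05 in AICAR at 24 h and 4.23 in controls) and Thy1 (4.72 in AICAR at 24 h and 4.94 in controls) lay below it. Of 7 epithelial markers 4 lay above it, among them Krt19 at 9.54 in AICAR at 24 h and 9.82 in controls, while Cdh1 and Krt8 were below. The mean level of the fibroblast list was 7.84 to 7.93 in the 3 arrays at 24 h and 7.97 to 8.02 in controls. The macrophage list, with 2 of 8 markers above background and Ptprc and Adgre1 below it, averaged 4.82 to 4.94 at 24 h and 4.75 to 4.79 in controls. Its one called gene was Cd68, at 5.85 ± 0.27 in AICAR at 24 h and 4.77 ± 0.10 in controls. The control mean lay under the filter cutoff of 4.81, so Cd68 was tested only because of AICAR arrays. All 6 muscle markers and 1 of 6 endothelial ones lay above background, and the mean levels of these lists overlapped between 24 h and controls. The part of these markers in the results was not tested. The actin control probe sets, read at the 3′ end minus the 5′ end as a sign of RNA or labelling quality, gave 0.503 to 0.557 at 24 h and 0.383 to 0.458 in controls, without overlap. The highest values of this measure were 0.689 in AICAR 4 h replicate 2 and 0.646 in AICAR 8 h replicate 2.

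At 24 h Mob1a and Sav1 were higher in AICAR than at 0 h, Nf2, Tead1 and Vgll4 were lower, and Stk4, Mob1b, Yap1 and Wwtr1 did not pass the test. That is 5 of 9 genes called, against 40.4% of all 12944 genes tested (limma, Benjamini-Hochberg adjusted p under 0.05). By direction it is 2 of 9 higher, against 25.8% of all genes, and 3 of 9 lower, against 14.6%. The 9 log2 differences had a median of −0.08 and ranged between −0.64 and 0.54, and the median over all genes was 0.01. At 4 h Mob1a and Mob1b were higher, 2 of 9, where 12.1% of all genes were called and 5.18% were higher. The higher ones made up 42.9% of the genes called at 4 h, against 30.7% with median centring and 54.3% with a covariate for the interquartile range of the array. At 1, 2, 8 and 12 h the test called 0 of the 9 genes, where it called 0.479%, 1.47%, 10.3% and 23.7% of all genes. An F test over the 6 times called 6 of the 9, against 48.4% of all genes. The 6 were Mob1a, Sav1, Mob1b, Nf2, Yap1 and Wwtr1. When each array was left out in turn, the F test called Mob1a and Sav1 in all 20 fits and lost Mob1b in 1 (AICAR 4 h replicate 2, adjusted p = 0.0509). It lost Nf2 in 9 fits, Yap1 in 10 and Wwtr1 in 14. With the mean of a gene's probe sets the F test lost Mob1a (adjusted p = 0.176) and Wwtr1 (adjusted p = 0.933). With median centring it lost Mob1b (adjusted p = 0.170), Nf2 (0.162), Yap1 (0.348) and Wwtr1 (0.278).

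**Figure D1:**
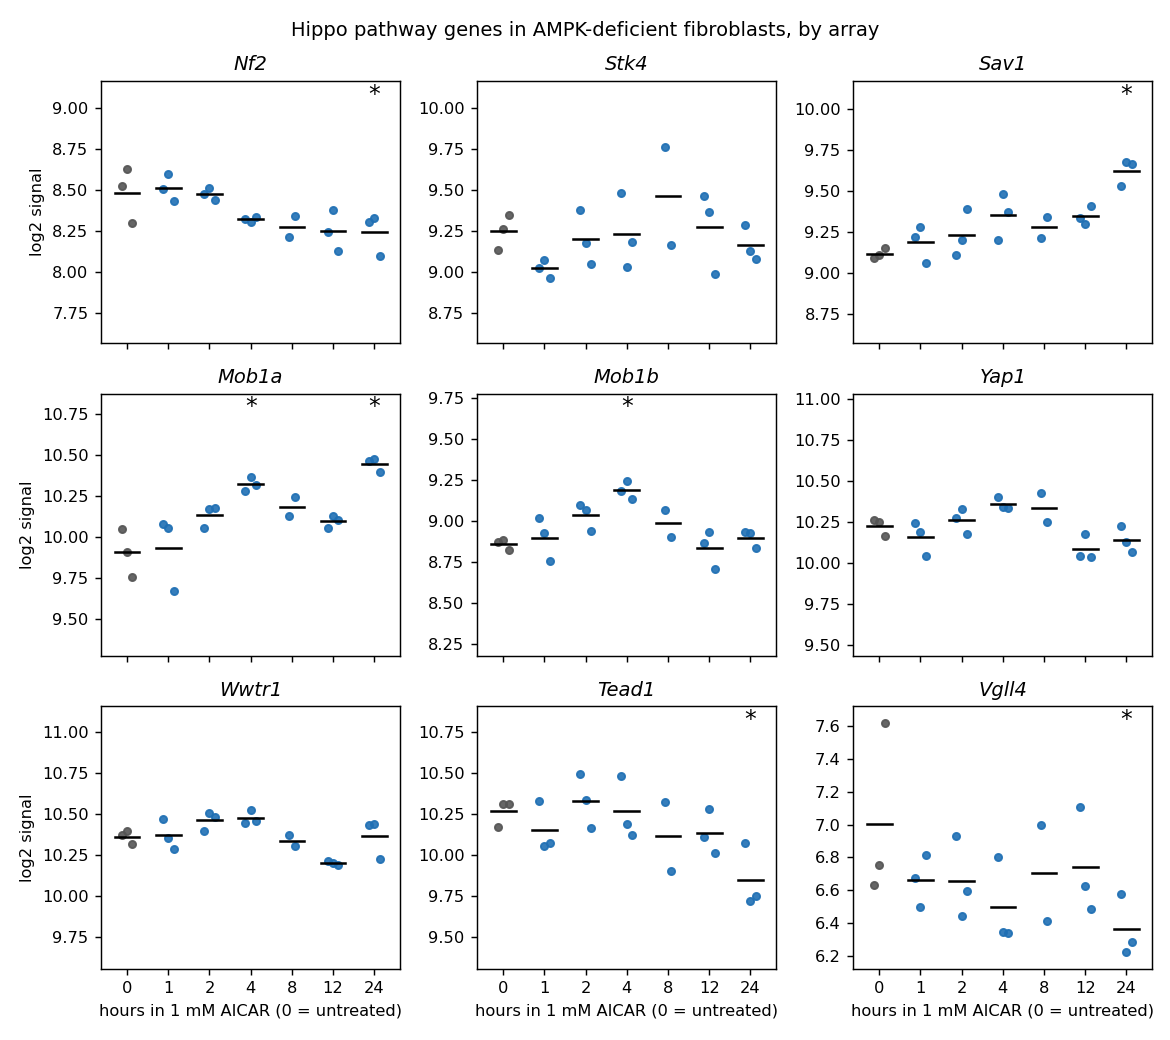
Log2 signal of the representative probe set of each of the 9 measured genes (y axis, 1.6 log2 units in every panel) by hours in 1 mM AICAR (x axis, 0 = untreated controls in grey). Points are arrays, lines are group means, and an asterisk marks the times among 4 and 24 h where the difference from 0 h passed the test. Mob1a and Sav1 sit above their controls on all 3 arrays at 24 h, and Tead1 and Vgll4 sit below theirs.

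Mob1a encodes a MOB1 adaptor, the cofactor that LATS kinases need for activity. Its log2 signal was 10.05, 9.91 and 9.76 in controls, then 10.08, 10.05 and 9.67 at 1 h, 10.06, 10.17 and 10.17 at 2 h, and 10.28, 10.37 and 10.32 at 4 h. It was 10.13 and 10.24 at 8 h, 10.05, 10.13 and 10.10 at 12 h, and 10.46, 10.48 and 10.40 at 24 h. The signal was thus high at 4 h and highest at 24 h. Every AICAR array lay above every control at 2, 4, 8, 12 and 24 h, and the arrays at 1 h overlapped the controls. The difference from 0 h was 0.41 ± 0.09 (SE) on the log2 scale at 4 h (limma adjusted p = 0.00723) and 0.54 ± 0.09 at 24 h (adjusted p = 0.000135), a 1.45-fold higher signal. From low to high, the group means were 9.91 ± 0.15 (SD, n = 3) for controls and 9.93 ± 0.23 after 1 h, with 12 h (10.10 ± 0.04), 2 h (10.13 ± 0.07) and 8 h (10.19 ± 0.08, n = 2) in the middle and 4 h (10.32 ± 0.04) and 24 h (10.45 ± 0.04) at the top. Among successive times, 24 h differed from 12 h, by 0.35 ± 0.09 (adjusted p = 0.0129, 19.9% of all genes called and 12.6% higher), which was lost with the mean of the Mob1a probe sets (0.24, adjusted p = 0.255). The other steps passed for 0 of the 9 genes, where 0.726% (2 h minus 1 h), 2.84% (4 h minus 2 h), 11.6% (8 h minus 4 h) and 1.21% (12 h minus 8 h) of all genes were called. At 4 h the Mob1a difference was 0.33 ± 0.09 with the actin measure of each array as a covariate (adjusted p = 0.0573), and it did not pass with the mean of the Mob1a probe sets either (0.26, adjusted p = 0.254).

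Sav1 encodes salvador, the scaffold that binds MST kinases. Its log2 signal was 9.09, 9.11 and 9.15 in controls, then 9.22, 9.28 and 9.06 at 1 h, 9.11, 9.20 and 9.39 at 2 h, and 9.21, 9.49 and 9.37 at 4 h. At 8 h it was 9.22 and 9.35, at 12 h 9.33, 9.30 and 9.41, and at 24 h 9.53, 9.68 and 9.67. The arrays from 4 h onward all lay above the 3 controls, and those at 24 h lay above every other array. The differences were 0.23 ± 0.09 at 4 h (adjusted p = 0.0886), 0.23 ± 0.09 at 12 h (adjusted p = 0.0641) and 0.51 ± 0.09 at 24 h (adjusted p = 0.000111), and 24 h alone passed against 0 h. The difference at 12 h, near the threshold, did pass with several settings, among them median centring (0.24, adjusted p = 0.0307), array weights (0.22, adjusted p = 0.0107) and the interquartile range covariate (0.25, adjusted p = 0.0101). At 4 h Sav1 did pass when AICAR 4 h replicate 1, the lowest of its group, was left out (0.31, adjusted p = 0.0391). The step between 12 and 24 h passed too, at 0.28 ± 0.09 (adjusted p = 0.0302). It did not pass once AICAR 12 h replicate 1 (0.27) or replicate 2 (0.25) was left out, nor once AICAR 24 h replicate 2 (0.25) or replicate 3 (0.26) was, nor with quantile normalization (0.26, adjusted p = 0.0651). With the actin 3′ minus 5′ value of each array as a covariate, the differences at 24 h were 0.39 ± 0.08 for Sav1 (adjusted p = 0.000632) and 0.47 ± 0.10 for Mob1a (adjusted p = 0.00120).

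Because Mob1a and Sav1 moved together at 24 h, their promoters are shown from RefSeq (GRCm38.p6), 250 bases before to 50 after the annotated start, read 5′ to 3′ on the strand of the gene. Capitals mark CATTCC, the core letters of the TEAD binding motif. The Mob1a window is chr6:83325789-83326088 on the plus strand, with the motif starting 209 bases before the start. The Sav1 window is chr12:69986953-69987252 on the minus strand, with the motif starting 106 bases before the start. The Sav1 window has 78.3% G or C and 50 CpG pairs, the Mob1a window 58.3% and 19, and the median of all promoters is 52.7% and 7.
Mob1a: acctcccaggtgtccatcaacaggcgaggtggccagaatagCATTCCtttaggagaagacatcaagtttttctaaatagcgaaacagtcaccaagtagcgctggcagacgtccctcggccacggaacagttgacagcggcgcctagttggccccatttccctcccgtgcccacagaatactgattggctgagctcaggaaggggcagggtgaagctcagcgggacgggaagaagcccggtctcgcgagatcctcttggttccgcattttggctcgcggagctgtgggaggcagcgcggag
Sav1: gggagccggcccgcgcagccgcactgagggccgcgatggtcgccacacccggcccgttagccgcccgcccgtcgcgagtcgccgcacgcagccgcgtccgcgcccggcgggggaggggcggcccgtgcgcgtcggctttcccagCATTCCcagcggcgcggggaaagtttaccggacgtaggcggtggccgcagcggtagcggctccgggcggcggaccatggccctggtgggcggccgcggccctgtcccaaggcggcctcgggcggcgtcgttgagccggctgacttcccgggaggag

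Promoters of 8 of the 10 genes matched by symbol, the others being Stk3 and Tead1. Nf2 and Wwtr1 have 2 promoters each, and a gene was counted if any of its promoters held the motif. The shares of all promoters are counted per promoter, which is a different unit. CATTCC on either strand was found for 5 of the 8 genes (Sav1, Mob1a, Yap1, Wwtr1 and Vgll4), and in 14.7% of all 32851 promoters of that length. The 3 further hits are shown with 20 bases on each side because these genes encode the TEAD coactivators and a TEAD cofactor. In each the motif lies on the opposite strand, so the capitals read GGAATG. The windows are chr9:8004712-8004757 for Yap1, chr3:57576021-57576066 for Wwtr1 and chr6:114969260-114969305 for Vgll4, all on the minus strand.
Yap1: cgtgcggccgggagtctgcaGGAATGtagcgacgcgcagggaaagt
Wwtr1: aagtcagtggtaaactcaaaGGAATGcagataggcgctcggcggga
Vgll4: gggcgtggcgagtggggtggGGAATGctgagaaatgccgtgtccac

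The GC box GGGCGG was found for 7 of the 8 genes and in 35.7% of all promoters. The E-box CACGTG was found for 4 of 8 genes and in 7.15% of all promoters, and the ETS motif CCGGAAG for 1 of 8 and in 8.86%. The letters TGACG were found for 0 of the 8 genes, and in 20.8% of all promoters. All motifs were searched on both strands. CATTCC and the reverse of the ETS motif share the letters TTCC, and the one promoter with the ETS motif, that of Stk4, held no CATTCC. Of the genes with CATTCC, Sav1 and Mob1a were higher at 24 h, Vgll4 was lower, and Yap1 and Wwtr1 did not pass, so the motif did not go with 1 direction.

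Mob1b encodes the paralogous MOB1 adaptor. Its log2 signal was 8.88, 8.88 and 8.83 in controls, then 9.02, 8.93 and 8.76 at 1 h, 9.10, 9.07 and 8.94 at 2 h, and 9.18, 9.25 and 9.13 at 4 h. It was 9.07 and 8.91 at 8 h, 8.86, 8.93 and 8.71 at 12 h, and 8.93, 8.93 and 8.84 at 24 h. The arrays at 2, 4 and 8 h lay above every control, with the peak at 4 h, and those at 1, 12 and 24 h overlapped the controls. The difference was 0.33 ± 0.08 at 4 h (adjusted p = 0.0105; 0.28, adjusted p = 0.0923, with median centring), −0.03 ± 0.08 at 12 h and 0.04 ± 0.08 at 24 h (adjusted p = 0.773). The 95% interval of the difference at 24 h ran between −0.13 and 0.20 for Mob1b and between 0.34 and 0.74 for Mob1a.

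The 2 MOB1 paralogs were compared directly through the within-array difference of their log2 signals, which is not a ratio of transcript levels since the probes differ. Mob1a minus Mob1b was 1.35 ± 0.19 (SD, n = 8) on the late arrays (8, 12 and 24 h) and 1.09 ± 0.10 (n = 9) on the early ones (1, 2 and 4 h). The change of 0.26 had an exact two-sided permutation p of 0.00280 (adjusted 0.00559 over 2 pairs). For Yap1 minus Wwtr1 the change was 0.05 (exact permutation p = 0.340, adjusted 0.340). These permutations moved single arrays between late and early as if exchangeable, although arrays of the same hour form a group. The permutation p-values and the SDs therefore mix differences between times with array-to-array spread. The pair of Stk3 and Stk4 could not be compared.

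Nf2 encodes merlin, a band 4.1 family protein that links the cortex to the MST and LATS kinases. Its representative probe set gave log2 signals of 8.52, 8.63 and 8.30 in controls, 8.51, 8.60 and 8.44 at 1 h, 8.48, 8.51 and 8.44 at 2 h, and 8.32, 8.30 and 8.34 at 4 h. At 8 h it gave 8.21 and 8.34, at 12 h 8.24, 8.38 and 8.13, and at 24 h 8.30, 8.33 and 8.10. From 4 h onward every array lay below 2 of the controls, but control replicate 3 overlapped them at each of these times. The difference at 24 h was −0.24 ± 0.09 (adjusted p = 0.0350), and at 12 h it was −0.23 ± 0.09 (adjusted p = 0.0623). The difference at 12 h passed without AICAR 12 h replicate 2 (−0.30, adjusted p = 0.0358) and without control replicate 3 (−0.33, adjusted p = 0.0150). The call at 24 h was lost when AICAR 24 h replicate 3 (−0.17), control replicate 1 (−0.22) or control replicate 2 (−0.17) was left out, and with median centring (−0.22). It was also lost with the mean of the Nf2 probe sets (−0.15, adjusted p = 0.105). The same held when the 24 h and control arrays were fitted alone (−0.24, adjusted p = 0.112). Its F test (adjusted p = 0.0344) did not pass once 1 h replicate 1 or 2, 2 h replicate 1 or 2, 8 h replicate 1, 12 h replicate 1 or 3, 24 h replicate 3 or control replicate 1 was left out, with an adjusted p of up to 0.0721.

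Stk4 encodes the kinase MST1. Its representative probe set read 9.14, 9.26 and 9.34 in controls, 9.02, 9.07 and 8.96 at 1 h, 9.38, 9.17 and 9.05 at 2 h, and 9.48, 9.03 and 9.18 at 4 h. It read 9.76 and 9.16 at 8 h, 9.46, 9.37 and 8.99 at 12 h, and 9.28, 9.12 and 9.08 at 24 h. Replicates stood furthest apart at 8 h (SD 0.42, n = 2), and the groups overlapped the controls except at 1 h, where all 3 arrays lay below the controls. No time passed the test, with a difference of −0.23 ± 0.15 at 1 h (adjusted p = 1.00) and −0.09 ± 0.15 at 24 h (adjusted p = 0.714), whose 95% interval ran between −0.40 and 0.22. With the actin covariate, the difference at 8 h was 0.48 (adjusted p = 0.0143). Late against early arrays, Stk4 differed by 0.15 (adjusted p = 0.196), and by 0.25 without 8 h replicate 2 (adjusted p = 0.0262).

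Yap1 encodes YAP, the main coactivator that the pathway restrains. Its representative probe set 1448363_PM_at gave log2 signals of 10.26, 10.25 and 10.17 in controls, 10.25, 10.19 and 10.05 at 1 h, 10.28, 10.33 and 10.18 at 2 h, and 10.41, 10.34 and 10.34 at 4 h. It gave 10.43 and 10.25 at 8 h, 10.04, 10.18 and 10.04 at 12 h, and 10.23, 10.13 and 10.07 at 24 h. These signals stayed between 10.04 and 10.43 over the 20 arrays, with the arrays at 4 h above all 3 controls. The F test passed (adjusted p = 0.0367), and no single time did in the main fit. At 12 h Yap1 passed with the mean of its probe sets (−0.41, adjusted p = 0.00535) and with the interquartile range covariate (−0.16, adjusted p = 0.0416). At 4 h it passed with that covariate (0.19, adjusted p = 0.0414) and with array weights (0.09, adjusted p = 0.0361). With median centring the F test did not pass (adjusted p = 0.348). The F call was lost, with an adjusted p of up to 0.0857, when 2 h replicate 1, any 4 h array, 8 h replicate 1, 12 h replicate 1 or 3, 24 h replicate 2 or 3, or control replicate 2 was left out. The differences were 0.13 ± 0.07 at 4 h, −0.14 ± 0.07 at 12 h and −0.08 ± 0.07 at 24 h (adjusted p = 0.423), and the 95% interval at 24 h ran between −0.24 and 0.07.

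The second Yap1 probe set, 1416487_PM_a_at, behaved differently. It gave 6.97, 6.95 and 6.72 in controls, 7.06, 7.17 and 6.86 at 1 h, 6.94, 6.88 and 6.78 at 2 h, and 6.55, 5.89 and 6.38 at 4 h. It gave 6.85 and 6.59 at 8 h, 6.23, 6.25 and 6.15 at 12 h, and 6.64, 6.73 and 6.32 at 24 h. All arrays at 4 h and at 12 h lay below all controls, and those at 8 and 24 h overlapped them. Its difference from 0 h was −0.61 ± 0.14 at 4 h (adjusted p = 0.0126, 9.93% of all probe sets called) and −0.67 ± 0.14 at 12 h (adjusted p = 0.00301, 21.0% called). At 24 h it was −0.32 ± 0.14 (adjusted p = 0.0969), and it passed there with quantile normalization (−0.37, adjusted p = 0.0389) and with the interquartile range covariate (−0.41, adjusted p = 0.00393). A suffix of a_at in these names means that the probes match several transcripts of a gene, and the positions of the probes were not used here.

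The disagreement between the Yap1 probe sets was tested within arrays. Relative to 1448363_PM_at, the signal of 1416487_PM_a_at differed from 0 h by −0.74 ± 0.12 at 4 h (adjusted p = 0.00172) and by −0.53 ± 0.12 at 12 h (adjusted p = 0.00964). Over the 6 times the F test gave an adjusted p of 0.000345. Of the 9 further probe sets of these genes, 1 was called by that F test, against 27.1% of 7513 such pairs on the array, and 1 was called at 4 h and 1 at 12 h, against 6.10% and 13.2%. The call at 4 h for the second probe set itself was lost when its lowest array, AICAR 4 h replicate 2 (−0.42), control replicate 1 (−0.56) or control replicate 2 (−0.57) was left out, and with the actin covariate (−0.41). The disagreement was called in each of these fits, and was −0.60 ± 0.14 at 4 h with the actin covariate (adjusted p = 0.0169).

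**Figure D2:**
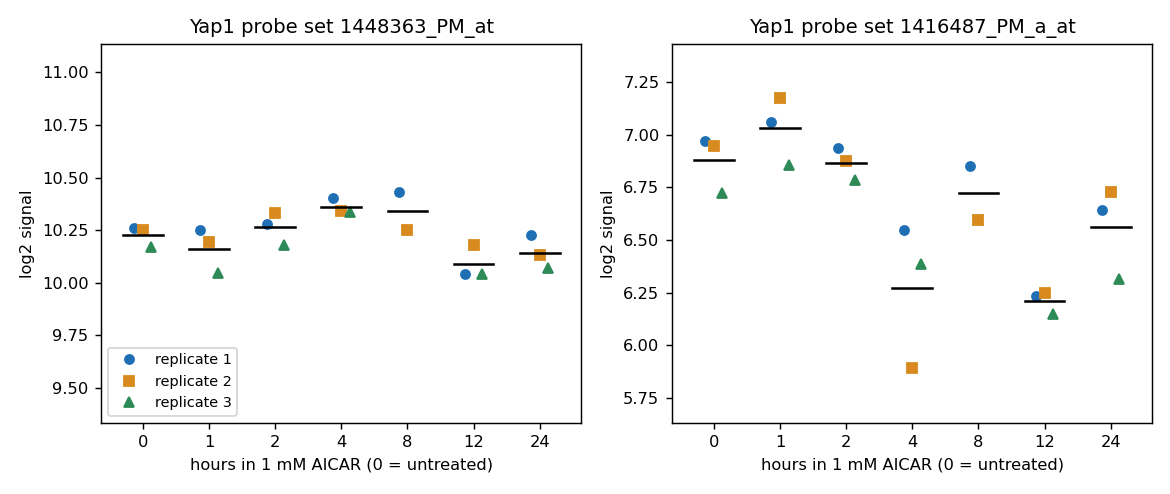
Log2 signal of both Yap1 probe sets (y axis, the same span in both panels) by hours in 1 mM AICAR (x axis). Symbols are arrays by replicate number and lines are group means. At 4 h the left probe set averaged 10.36, above its control mean of 10.23, and the right one averaged 6.27, below its control mean of 6.88.

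Wwtr1 encodes TAZ, the paralogous coactivator. Its representative probe set read 10.38, 10.40 and 10.32 in controls, 10.47, 10.36 and 10.29 at 1 h, 10.39, 10.50 and 10.49 at 2 h, and 10.44, 10.52 and 10.46 at 4 h. It read 10.37 and 10.31 at 8 h, 10.21, 10.20 and 10.19 at 12 h, and 10.43, 10.44 and 10.23 at 24 h. The arrays at 4 h lay above the controls and those at 12 h below them, while those at 24 h overlapped them. No time passed against 0 h in the main fit, with −0.16 ± 0.07 at 12 h (adjusted p = 0.101) and 0.00 ± 0.07 at 24 h (adjusted p = 0.979, 95% interval between −0.14 and 0.15). The difference at 12 h did pass with quantile normalization (−0.15, adjusted p = 0.0385) and array weights (−0.18, adjusted p = 0.0149). It also passed with the interquartile range covariate (−0.17, adjusted p = 0.0465). The F test passed narrowly (adjusted p = 0.0419). That call was lost, with an adjusted p of up to 0.117, on leaving out 1 h replicate 2, 2 h replicate 2 or 3, or any single array of the 4, 8 and 12 h groups or the controls. The 2 further Wwtr1 probe sets, 1417817_PM_a_at and 1437155_PM_a_at, had residual SDs of 0.385 and 0.568 between replicates, above those of 97.1% and 98.5% of probe sets, and passed at no time. With the interquartile range covariate the residual SD of 1437155_PM_a_at was 0.348, and this probe set passed at 24 h (−0.68, adjusted p = 0.0349).

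Tead1 encodes a TEAD factor that carries YAP and TAZ to DNA. Its log2 signal was 10.18, 10.31 and 10.32 in controls, 10.33, 10.06 and 10.07 at 1 h, 10.50, 10.34 and 10.16 at 2 h, and 10.48, 10.19 and 10.13 at 4 h. It was 10.33 and 9.90 at 8 h, 10.11, 10.28 and 10.01 at 12 h, and 10.07, 9.72 and 9.75 at 24 h. The 24 h arrays lay below every control, and at the other times the groups overlapped. The difference at 24 h was −0.42 ± 0.13 (adjusted p = 0.0147), a 1.34-fold lower signal. It was −0.36 when AICAR 24 h replicate 2 was left out, −0.37 when replicate 3 was and −0.23 ± 0.11 with the actin covariate (adjusted p = 0.116), and passed in none of these 3 fits. The F test did not call Tead1 (adjusted p = 0.0672), but did without 2 h replicate 3, without either 8 h array and without 24 h replicate 1, with an adjusted p of 0.0280 to 0.0426.

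Vgll4 encodes a TEAD cofactor that opposes YAP. Its log2 signal was 6.63, 6.76 and 7.62 in controls, 6.68, 6.50 and 6.81 at 1 h, 6.93, 6.44 and 6.60 at 2 h, and 6.80, 6.35 and 6.34 at 4 h. It was 7.0 and 6.41 at 8 h, 7.11, 6.62 and 6.48 at 12 h, and 6.58, 6.22 and 6.28 at 24 h. Control replicate 3 stood far above the other controls, and the 24 h arrays lay just below the lowest one. The difference at 24 h was −0.64 ± 0.23 (adjusted p = 0.0335), and without control replicate 3 it was −0.33 ± 0.20 (adjusted p = 0.250). It was −0.57 when AICAR 24 h replicate 2 was left out, −0.60 when replicate 3 was, −0.30 ± 0.20 with the actin covariate (adjusted p = 0.239) and −0.62 with median centring (adjusted p = 0.0516), and passed in none of these fits.

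Counting arrays rather than calls, 2 of the 9 genes (Mob1a and Sav1) had every 24 h array above every control, where 30.0% of all genes did. Another 2 (Tead1 and Vgll4) had every 24 h array below, where 2593 of the 12944 genes did. At 4 h, 5 of the 9 (Mob1a, Mob1b, Sav1, Yap1 and Wwtr1) had every array above every control, where 13.6% of all genes did.

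Probe sets of the same gene did not always move alike. Each probe set taken alone, 7 of 18 were called by the F test, against 43.6% of 20460. At 24 h 5 of 18 were called, against 37.5%, and these were the representative probe sets of Mob1a, Sav1, Nf2, Tead1 and Vgll4. With the interquartile range covariate 8 of 18 were called, the 3 added being Yap1 1416487_PM_a_at, Wwtr1 1437155_PM_a_at and Stk4 1421107_PM_at (−0.60, adjusted p = 0.000174). The share of all probe sets called with this covariate was not counted. Over all genes, the number called at 24 h was 6094 with the covariate and 5229 without it. A gain in calls was thus not particular to these probe sets. Sav1 1416075_PM_at read 7.34, 7.51 and 7.08 in AICAR at 24 h and 7.31, 7.29 and 7.07 in controls, a difference of 0.09 ± 0.12 against 0.51 for the representative one. The gap between these Sav1 probe sets was −0.42 ± 0.16 at 24 h (adjusted p = 0.0766). The further Mob1a probe sets differed by 0.18 ± 0.18 and 0.30 ± 0.25 at 24 h, neither called, and their gaps to the representative one did not pass (adjusted p = 0.296 and 0.618). The 2 further Nf2 probe sets that passed the filter differed by 0.01 ± 0.12 and −0.04 ± 0.10 at 24 h. Stk4 1421107_PM_at read 5.92, 5.77 and 5.35 in AICAR at 24 h and 6.18, 6.20 and 6.08 in controls, without overlap. Its difference was −0.47 ± 0.18 (adjusted p = 0.0553), and its gap to the representative Stk4 probe set was −0.38 ± 0.13 (adjusted p = 0.0440, 23.8% of pairs called).

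**Figure D3:**
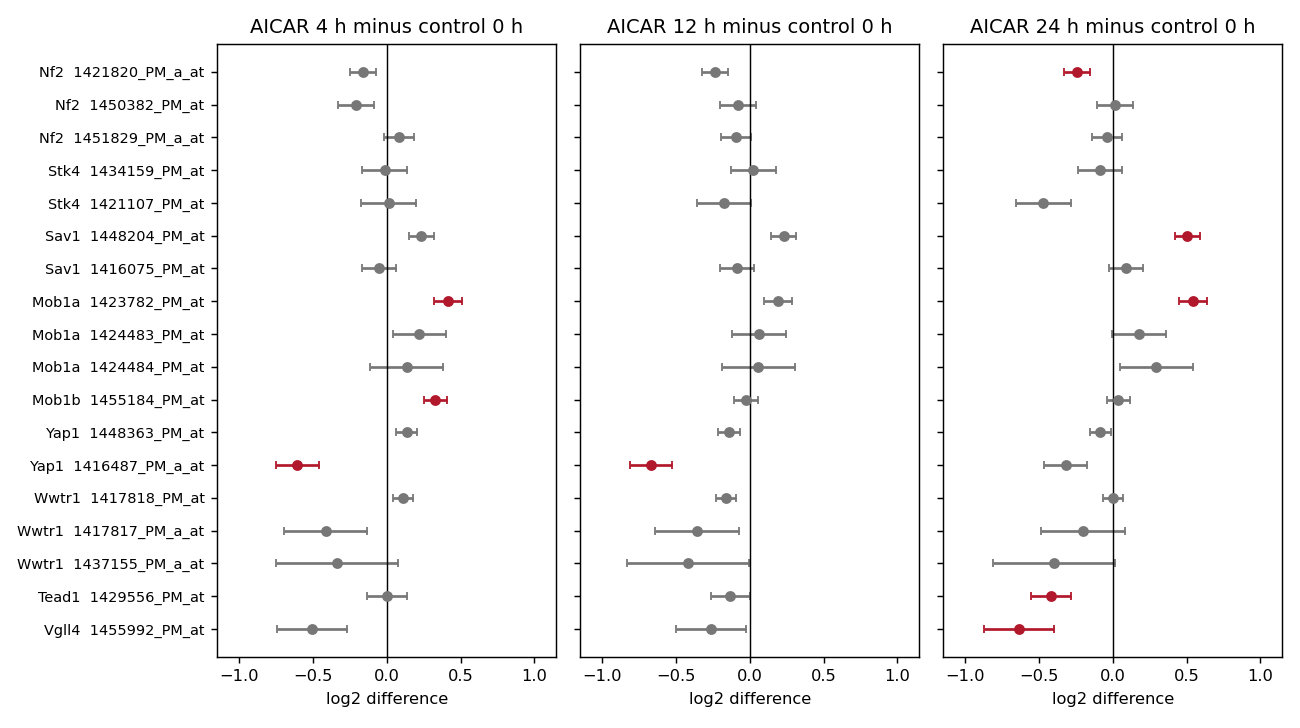
Log2 difference from control 0 h (x axis) for each of the 18 tested probe sets (y axis) at 4, 12 and 24 h in AICAR. Bars are standard errors from the fit over probe sets, and red marks an adjusted p under 0.05. The second Yap1 probe set lies at −0.61 at 4 h and −0.67 at 12 h, while the first lies at 0.13 and −0.14.

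Late arrays (8, 12 and 24 h) were also set against early ones (1, 2 and 4 h), which leaves out the controls. Sav1 was higher late, and Mob1b, Nf2, Wwtr1 and Tead1 were lower. These are 5 of 9 called, against 43.2% of all genes, with 1 of 9 higher against 28.9% and 4 of 9 lower against 14.2%. The differences were 0.16 ± 0.05 for Sav1 (adjusted p = 0.0182), −0.13 ± 0.05 for Mob1b (adjusted p = 0.0284), −0.18 ± 0.05 for Nf2 (adjusted p = 0.00908), −0.13 ± 0.04 for Wwtr1 (adjusted p = 0.0133) and −0.22 ± 0.08 for Tead1 (adjusted p = 0.0309). Mob1a differed by 0.11 ± 0.06 (adjusted p = 0.118). With median centring 1 of the 9 was called.

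These late differences were small, and several rested on single arrays. Without AICAR 8 h replicate 2, Sav1 (0.14, adjusted p = 0.0687), Mob1b (−0.11, adjusted p = 0.114) and Tead1 (−0.15, adjusted p = 0.157) no longer passed. The Mob1b call was also lost without 1 h replicate 1 (−0.11), 2 h replicates 1 (−0.12) or 2 (−0.13), 4 h replicate 2 (−0.12), 12 h replicate 3 (−0.11) or 24 h replicate 3 (−0.12). The Tead1 call was also lost without 1 h replicate 1 (−0.19), 2 h replicate 1 (−0.19), 4 h replicate 1 (−0.18), 12 h replicates 1 (−0.21) or 3 (−0.20), or 24 h replicates 2 (−0.20) or 3 (−0.20). Nf2 and Wwtr1 passed in each of the 17 such fits. Both were lost with median centring, however, Nf2 at −0.15 (adjusted p = 0.0801) and Wwtr1 at −0.10 (adjusted p = 0.121). With the mean of a gene's probe sets, Wwtr1 differed by −0.04 (adjusted p = 0.839) and Sav1 by 0.08 (adjusted p = 0.0970), and neither passed. Sav1 was also lost with quantile normalization (0.15, adjusted p = 0.0512).

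The genes whose profile over the 20 arrays was closest to that of the 3 members with the lowest F test p-values were found by Pearson correlation, a description in which the arrays share their time groups. For Mob1a they were Cnep1r1 (r = 0.937), Rfx7 (0.934) and Lysmd3 (0.931). For Sav1 they were Patl1 (0.934), Rnf6 (0.933) and Golph3 (0.918), and for Mob1b they were Gpatch8 (0.923), Rbm22 (0.909) and Ankrd11 (0.908).

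Around these 9 genes, the rest of the pathway was grouped by role and read at 24 h. Of 12 tested membrane and junction regulators, 0 were higher and 6 lower, with a median difference of −0.43. Amotl2, a junctional angiomotin that binds YAP, averaged 9.19 ± 0.10 in AICAR and 10.16 ± 0.09 in controls (SD, n = 3 each), a difference of −0.96 ± 0.07 (adjusted p = 1.74e-08). Frmd6, a FERM protein related to merlin, differed by −0.83 ± 0.13, the protocadherin Fat1 by −0.53 ± 0.17 and the LIM protein Ajuba, which restrains LATS, by −0.51 ± 0.09. The representative probe set of Nf2 (merlin) moved in the direction of this list. The mean of the Nf2 probe sets did not pass (−0.15, adjusted p = 0.105).

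Of 11 other kinases, 5 were higher and 3 lower, with a median of 0.16. With median centring 4 were higher and 1 lower. The lower count was also 1 when AICAR 24 h replicate 3 or control replicate 1 or 2 was left out, and the higher count was 3 when AICAR 24 h replicate 1 or 2 or control replicate 2 or 3 was. The LATS kinases parted, with Lats1 at 10.40, 10.37 and 10.25 in AICAR and 9.68, 9.69 and 9.67 in controls (0.66 ± 0.07, adjusted p = 9.92e-07), and Lats2 at a difference of −0.56 ± 0.14 (adjusted p = 0.00391). Stk38, a LATS-related NDR kinase that also uses MOB1, was higher by 0.65 ± 0.07, and Map4k4, which can phosphorylate LATS in place of MST, was lower by −0.38 ± 0.14. Of 9 RASSF and MOB relatives, 3 were higher and 1 lower, with a median of 0.20. Rassf1, whose product binds MST kinases, differed by 0.46 ± 0.11 and Rassf3 by 0.69 ± 0.14. Rassf6 (−0.40 ± 0.09) and Rassf2 (0.38 ± 0.10) had means below the background level in AICAR and in controls. The control mean of Rassf2, 4.47, also lay under the filter cutoff of 4.81. Rassf2 was thus tested only because of AICAR arrays, and its place among the 3 higher genes is not independent of the filter.

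Of 10 members of STRIPAK, the phosphatase complex that dephosphorylates MST kinases, 5 were higher and 0 lower, with a median of 0.25. Its scaffold gene Strn read 9.72, 9.78 and 9.69 in AICAR and 8.88, 8.86 and 8.73 in controls (0.91 ± 0.09, adjusted p = 3.86e-07). Sike1 differed by 0.85 ± 0.11 and Fgfr1op2 by 0.27 ± 0.10. Strip2 differed by 1.33 ± 0.18, with 5.39, 5.39 and 4.43 in AICAR and 3.77, 3.73 and 3.71 in controls, so that 2 of the 6 arrays lay above the background level. Its control mean of 3.74 lay under the filter cutoff of 4.81, so Strip2 was tested only because of AICAR arrays. Its place among the 5 higher genes is therefore not independent of the filter. The count was 3 of 10 with median centring, and also when AICAR 24 h replicate 1 or 2 or control replicate 2 was left out.

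Of 10 genes for YAP retention and turnover, 3 were higher and 0 lower, with a median of 0.08. They were the 14-3-3 gene Ywhah (0.28 ± 0.08), the ubiquitin ligase subunit Fbxw11 (0.27 ± 0.07) and the casein kinase gene Csnk1d (0.23 ± 0.07). Of 6 TEAD and VGLL relatives, 0 were higher and 2 lower, with a median of −0.12. The lower count was 1 with median centring, and when AICAR 24 h replicate 2 or 3 or control replicate 1 or 2 was left out. Tead2 differed by −0.32 ± 0.11 and Vgll3 by −0.29 ± 0.07, in the direction of Tead1 and Vgll4, and Tead4, called by the F test alone (adjusted p = 0.00854), differed by −0.11 ± 0.08. Of 20 YAP and TAZ target genes, 0 were higher and 13 lower, with a median of −0.39. Ccn2, a matrix protein gene used as a YAP reporter, read 10.13, 10.13 and 10.03 in AICAR and 11.87, 11.90 and 11.83 in controls (−1.77 ± 0.10, adjusted p = 1.67e-10), and Crim1 (−0.97 ± 0.11) and Ankrd1 (−0.92 ± 0.09) followed. Amotl2, Ajuba, Lats2 and Ptpn14 stand in this list and in another one. Each list is read against the median of 0.01 over all genes and the shares called given above. The lists were put together with results of these data known and give no independent support. The fibroblast marker list, whose mean level was also lower at 24 h, had 0 of 9 tested genes higher and 3 lower, with a median of −0.22, and its part in these results was not tested.

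**Figure D4:**
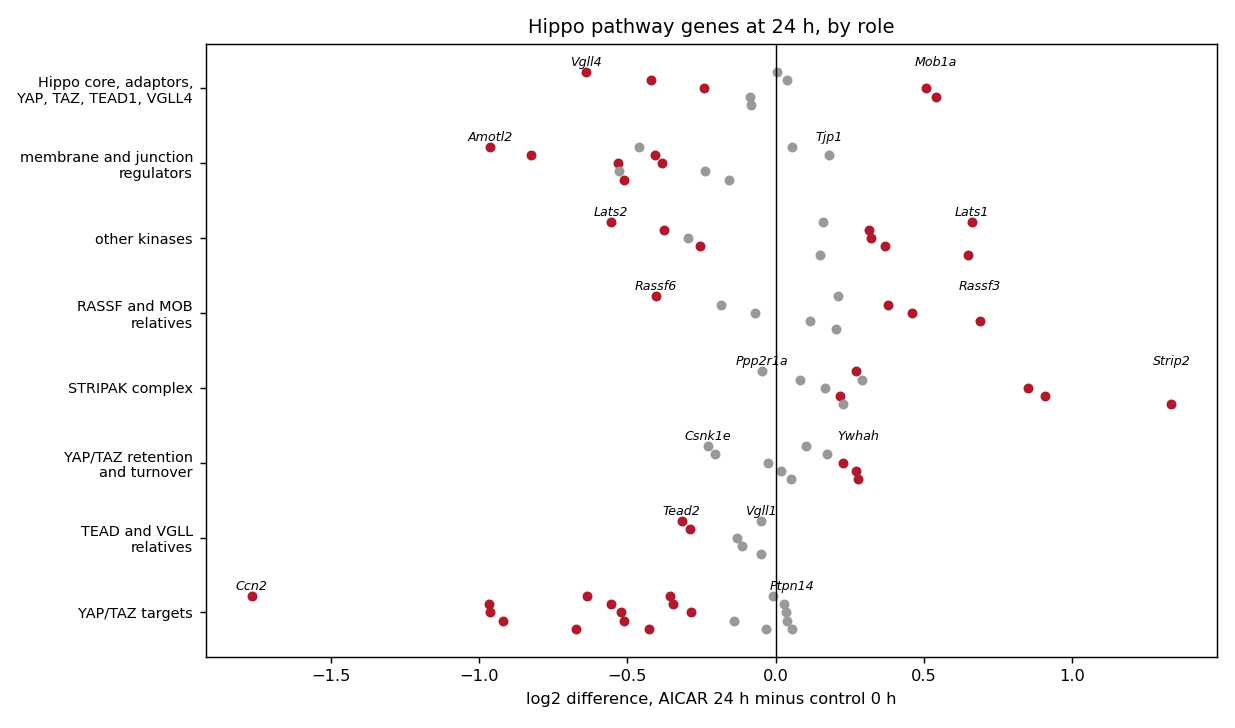
Log2 difference at 24 h in AICAR from control 0 h (x axis) for each tested gene of the Hippo pathway, grouped by role (y axis). Points are genes, red marks an adjusted p under 0.05, and names mark the lowest and highest gene of each list. The membrane regulators and the YAP and TAZ targets lie mostly left of 0, and the STRIPAK genes lie mostly right of it.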

How the data were processed

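Signals were read from the value table that the submitters deposited, 1 log2 value for each of 45141 probe sets on 20 Affymetrix arrays. The summarisation and normalization that the authors applied before depositing the log2 values are not stated in the labels or files used here. The base of 2 was inferred: the top value, 13.46, would lie beyond a 16-bit scanner's range in natural logs (11.09) and lies within it in base 2. Probe sets were named from the platform annotation; 28898 carried 1 symbol, 551 several, and 15692 were not listed.

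For each gene the probe set of highest mean was kept as its representative, and genes were tested if their highest group mean exceeded the 40th percentile of all values (4.81). A single limma fit (version 3.58.1, R 4.3.3) over the 20 arrays gave the differences, the F tests and the Benjamini-Hochberg adjusted p-values over 12944 genes, called under 0.05, with 13 residual degrees of freedom. The same fit was run on 20460 probe sets and on 7513 within-array differences between probe sets of a gene. The scripts were tested on simulated data. Related gene pairs were compared by exact permutation over the 17 AICAR arrays, and the planned pair of Stk3 and Stk4 could not be run.

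All 10 members were named, and from each role list up to 4 genes past the threshold at 24 h or by the F test, in order of absolute difference at 24 h. The members and lists were chosen with earlier results of these data known. Alternatives changed the normalization, centring, filter, choice of probe set, variance model, array weights, arrays in the fit, replicate block and 2 array measures as covariates, and left out each array in turn. The number of arrays limits the precision of every value.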

Additional observations from a re-analysis of the deposited data

Results flagged for a closer look

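Differences between time groups that passed their own test were singled out. Between late (8, 12 and 24 h) and early (1, 2 and 4 h) arrays in AICAR, the limma difference on the log2 scale was 0.16 ± 0.05 (SE) for Sav1 (adjusted p = 0.0182), with −0.13 ± 0.05 for Mob1b (adjusted p = 0.0284) and −0.18 ± 0.05 for Nf2 (adjusted p = 0.00908). It was −0.13 ± 0.04 for Wwtr1 (adjusted p = 0.0133) and −0.22 ± 0.08 for Tead1 (adjusted p = 0.0309). Median centring lost the late calls of Mob1b (limma adjusted p = 0.202), Nf2 (0.0801), Wwtr1 (0.121) and Tead1 (0.120). Quantile normalization lost that of Sav1 (0.0512), and the mean of probe sets lost those of Wwtr1 (0.839) and Sav1 (0.0970). Between 24 h and 12 h the limma difference was 0.28 ± 0.09 for Sav1 (adjusted p = 0.0302) and 0.35 ± 0.09 for Mob1a (adjusted p = 0.0129). Mob1a, Sav1 and Wwtr1 were higher on every 24 h array than on every 12 h array. The share of all genes that did so was not counted, and Wwtr1 did not pass the limma test (0.16, adjusted p = 0.106). The Sav1 step was lost with quantile normalization (0.26, adjusted p = 0.0651). The Mob1a step was lost with the mean of its probe sets (0.24, adjusted p = 0.255).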

How the results depend on the processing

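The calls of Mob1a and Sav1 at 24 h against 0 h passed in every alternative run, with log2 differences of 0.34 to 0.61 for Mob1a and 0.30 to 0.55 for Sav1, and no called value of the 9 genes changed sign. At 24 h the count of called genes was 5, and it was 3 with the actin covariate, with the compared groups alone or with median centring, and 2 to 5 without single arrays. At 4 h it was 2, and 1 with the actin covariate, the mean of probe sets or median centring, 6 with array weights and 2 to 3 without single arrays. At 12 h it was 0, and 4 with the interquartile range covariate, 3 with array weights, 2 with quantile normalization, the stricter filter or the replicate block, 1 with median centring, the mean of probe sets, trended variance, the compared groups alone or the 2 arrays of highest median left out, and 0 to 1 without single arrays. At 8 h it was 0, and 2 with quantile normalization or array weights and 1 with the actin covariate or the replicate block. At 2 h it was 0, and 2 with array weights. The F test called 6, and 2 with median centring and 3 to 7 without single arrays. Late against early arrays gave 5, and 1 with median centring and 3 to 5 without single arrays. Successive times gave 2 calls, and 5 with quantile normalization and 4 with the replicate block. By the F test, 7 probe sets were called, and 3 with median centring. The F test of differences between probe sets called 1, and 3 with quantile normalization and 2 with the replicate block. The causes were not tested.

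Over all genes, array weights moved the counts to 421 at 1 h, against 62 otherwise, and to 1338 (190 otherwise) for 2 h, 7476 (1564) for 4 h, 2371 (1336) for 8 h, 4645 (3068) for 12 h and 10636 (6260) for the F test. At 1 h the count was 94 with the actin covariate, 194 with the compared groups alone, 153 with the interquartile range covariate, 110 with quantile normalization and 107 with the replicate block. At 2 h it was 306 with the actin covariate, 618 with the interquartile range covariate, 353 with quantile normalization, 386 with the replicate block and 126 without the 2 arrays of highest median. At 4 h it was 2428 with the replicate block, and at 8 h 2418 with the interquartile range covariate, 781 with median centring and 2083 with quantile normalization. Without single arrays it was 18 to 60 at 1 h, 78 to 132 at 2 h, 904 to 1399 at 4 h and 250 to 1018 at 8 h. The higher share of called genes was 1.61% at 1 h, and 23.6% with quantile normalization and 15.0% with the interquartile range covariate. At 2 h it was 32.1%, and 21.3% with median centring and 48.4% with that covariate. The labels give no shared source for equal replicate numbers, so the numbers were not taken as pairs in the main fit. Whether arrays of equal number share a source was not tested. The interquartile range of an array was 3.01 to 3.24 in replicate 1 and 2.79 to 2.91 in replicate 3, without overlap. The 8 h group has no replicate 3, so the comparisons that use it are not balanced over the numbers. The deviations of same-numbered arrays correlated between −0.46 and 0.83, with a median of 0.24 against −0.12 for different numbers, and 35 of 57 pairs exceeded 0.1. Of the 20 arrays, 13 correlated best with their own number, a hint from the data and not from the design. With the block, Sav1 passed at 4 h (0.23, adjusted p = 0.0416) and at 12 h (0.23, adjusted p = 0.0316), and Nf2 at 8 h (−0.25, adjusted p = 0.0283) and at 12 h (−0.23, adjusted p = 0.0107), and the F test called Tead1 (adjusted p = 0.00988). Signals under the background level, as for Rassf6, limit what a difference can show, and 2 or 3 arrays a group limit the rest.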
